A study of Homo sapiens with 7 samples.

Results

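DUSP, SPRY and SPRED genes encode proteins that brake the RAS-ERK growth signal. Growth factor receptors switch on RAS, which activates the kinases RAF, MEK and ERK in turn, and ERK then drives cell division. DUSP proteins are phosphatases that remove the activating phosphates from ERK and its relatives JNK and p38. Sprouty (SPRY) proteins interfere with the signal between receptor and RAF, and SPRED proteins act with neurofibromin to hold RAS inactive. Several of these genes are themselves switched on by ERK, which makes them feedback brakes, and their transcripts are widely used as a readout of the pathway in breast and other cancer cells.

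The genes described here are 10 rows of a table of 63677 genes, chosen by symbol: DUSP1, DUSP4, DUSP5, DUSP6, DUSP10, SPRY1, SPRY2, SPRY4, SPRED1 and SPRED2. Each symbol had a single row, and each of the 10 had enough counts to be among the 17502 genes tested. SPRY4 met the minimum through the resistant libraries, having 6, 12 and 8 counts in the parental ones.

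RNA was sequenced from T47D, a human breast cancer cell line that expresses the estrogen receptor. The libraries came from resistant clone 2 (2 libraries), resistant clone 4 (2 libraries) and parental cells sensitive to palbociclib (3 libraries). Palbociclib inhibits CDK4 and CDK6, and the resistant cells had spent 6 months in it while the dose was raised from 1 uM to 5 uM, per the labels. A maintenance dose of the drug is also given there and is not reported here. The labels state that experiments left the drug out unless noted otherwise. The comparisons are therefore of resistant with sensitive cells, in which earlier drug exposure, resistance and traits particular to a clone cannot be told apart. Per the labels, the medium of every group contained serum, insulin, hydrocortisone and EGF, a growth factor that itself activates RAS and ERK. Each resistant group is a single clone, and the labels call the libraries biological replicates without saying that they came from separate cultures, so p-values measure the spread between these libraries, which may be technical.

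Libraries held 10997625 to 17524621 counts. None of 8 luminal epithelial markers was at 0 in any library, and their summed level was 9720 to 10200 CPM in clone 2, 11200 to 12600 CPM in clone 4 and 13900 to 17600 CPM in parental cells. CPM here and below is the read count scaled to library size, after TMM scaling of the libraries. KRT8 was at 2740 CPM in clone 2, 3540 CPM in clone 4 and 6870 CPM in parental cells, and KRT19 at 3920, 4100 and 3700 CPM. By edgeR (adjusted p below 0.05), KRT8, KRT18, FOXA1 and ESR1 (0.521-fold) were lower in clone 2 than in parental cells. KRT19, EPCAM, GATA3 and CDH1 were not called there. Of all genes tested, 20.8% were lower. In clone 4, KRT8 and CDH1 were lower and EPCAM higher. Of 8 fibroblast markers, 4 had enough counts to be tested. The summed level of the 8 was 214 and 238 CPM in clone 2, 71.6 and 104 CPM in clone 4 and 40.2 to 42.4 CPM in parental cells, most of it from COL1A1 and, in clone 2, COL3A1, while FAP was at 0 counts in every library and PDGFRA and PDGFRB had at most 1. By edgeR (adjusted p below 0.05), all 4 tested were higher in clone 2 than in parental cells, beside 21.7% of all genes tested. LUM was at 8.36-fold and DCN at 4.61-fold. These and COL3A1 were tested only because their counts in clone 2 were high enough, which in part set the count of 4. In clone 4, 1 of the 4 was higher and 0 lower, beside 22.1% and 22.3% of all genes tested. Of 8 leukocyte markers, 4 were tested, and the summed level of the 8 was 8.32 and 10.2 CPM in clone 2, 8.01 and 9.07 CPM in clone 4 and 3.74 to 4.98 CPM in parental cells, with TYROBP at 0 counts in every library and PTPRC at 1 or 0. ITGAM was called higher in both clones, at 3.75 CPM in clone 2, 2.05 CPM in clone 4 and 0.0442 CPM in parental cells. It had 2 counts over the parental libraries together. ITGAM and LYZ were tested only because their counts in the resistant libraries were high enough. CD68 was called higher in clone 4, at 4.6 CPM beside 1.95 CPM in parental cells. Against parental cells 0 of the 4 were called lower, which the filter in part set, beside 20.8% of all genes lower in clone 2 and 22.3% in clone 4. The part of these transcripts in the results below was not tested, and in bulk RNA fewer cells making a transcript and less of it per cell cannot be told apart.

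A gene was called where its edgeR adjusted p, over all genes tested, was below 0.05. In clone 2, 6 of the 10 brakes were called higher than in parental cells and 0 lower, beside 42.5% of all genes tested called, 21.7% higher and 20.8% lower. SPRY4 (13.0-fold) and DUSP1 (8.72-fold) were ahead of SPRY1, DUSP10, DUSP6 and DUSP4 (1.67 to 2.14-fold). In clone 4, against the same parental libraries, 4 of 10 were called higher and 0 lower, beside 44.4% of all genes called, 22.1% higher and 22.3% lower. SPRY4 was 7.62-fold higher there, and DUSP4, SPRY1 and SPRY2 were 1.28 to 1.48-fold higher. SPRY4 was tested only because its counts in the clones were high enough, which in part set the counts and medians against parental cells. Between the clones, 6 of 10 were called higher in clone 2 and 0 lower, beside 36.5% of all genes called, 19.6% higher and 17.0% lower, and DUSP1 was 7.74-fold higher in clone 2 than in clone 4. Neither SPRED gene nor DUSP5 was called in any of the 3 comparisons.

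DESeq2 called 0 lower as well, and at an unadjusted p below 0.05 only SPRED1 in clone 4 was lower. The median log2 fold change of the 10 was 0.81 in clone 2 and 0.15 in clone 4, each against parental cells, and 0.60 between the clones, beside 0.02, 0.01 and 0.03 over all genes tested. Leaving out 1 library gave 5 or 6 calls in clone 2, 1 to 4 in clone 4 and 3 to 8 between the clones. The clone 4 count was 1 without clone 4 replicate 1 and 2 without either clone 2 library, and the count between the clones was 3 without clone 2 replicate 2 or clone 4 replicate 2.

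**Figure D1:**
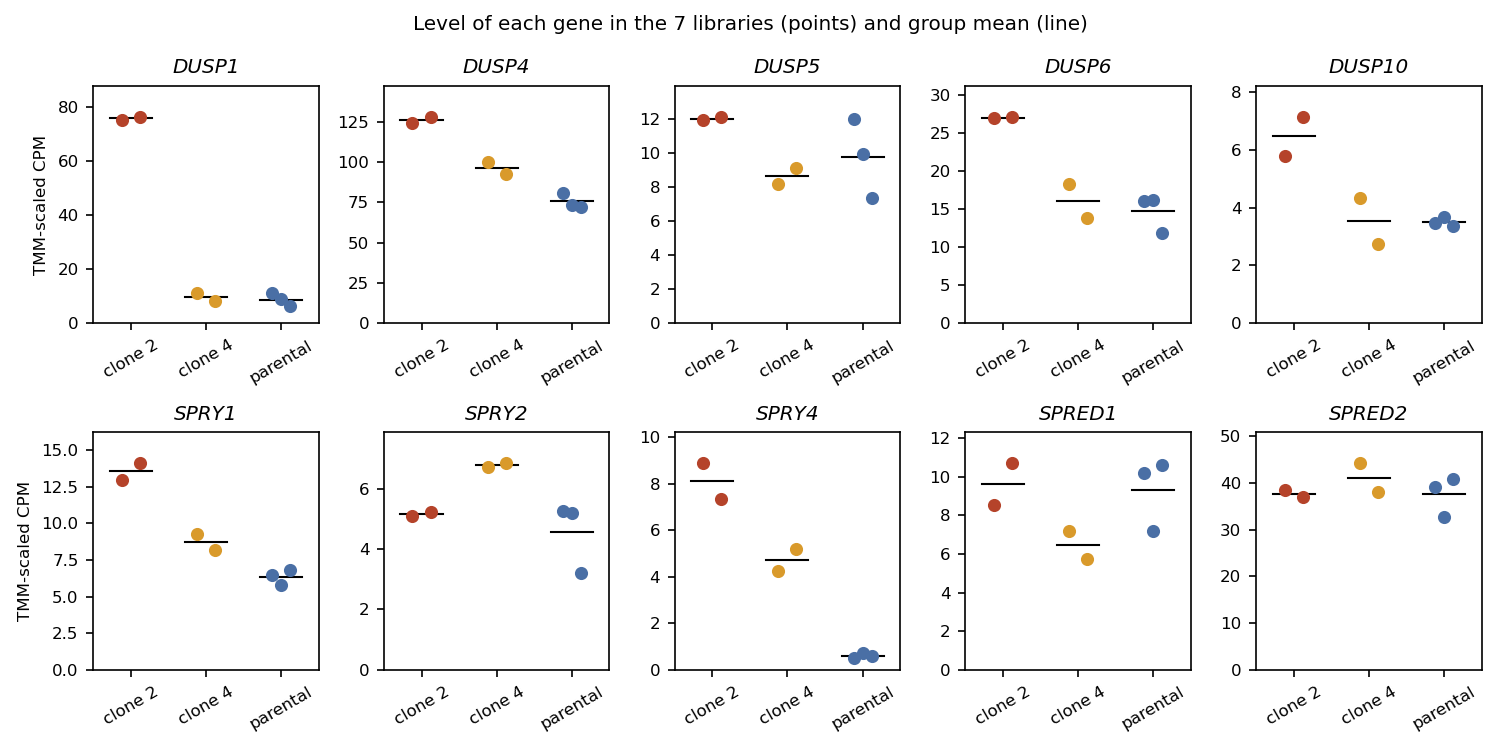
TMM-scaled CPM (vertical axis, from 0) of each of the 10 genes in clone 2, clone 4 and parental libraries, with 1 point per library and a line at the group mean. The clone 2 points lie above both other groups for DUSP1, DUSP4, DUSP6, DUSP10, SPRY1 and SPRY4, and the parental points of SPRY4 lie near 0.

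The promoters of DUSP1 and SPRY4 are shown because these are the genes with the largest differences. Each window is the 250 bases before the RefSeq transcription start (GRCh38.p14), written 5′ to 3′ along the gene's own strand. Capitals mark TGACG or its reverse complement CGTCA, the core of the cAMP response element that CREB and ATF factors bind, and TATAAA, the TATA box.
DUSP1 promoter, chr5:172771196-172771445, minus strand: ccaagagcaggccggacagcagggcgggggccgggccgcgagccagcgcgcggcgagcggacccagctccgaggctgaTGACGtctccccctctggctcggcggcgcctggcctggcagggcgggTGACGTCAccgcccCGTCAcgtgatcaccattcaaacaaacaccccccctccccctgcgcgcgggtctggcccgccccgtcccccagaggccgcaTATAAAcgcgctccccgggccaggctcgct
SPRY4 promoter, chr5:142324248-142324497, minus strand: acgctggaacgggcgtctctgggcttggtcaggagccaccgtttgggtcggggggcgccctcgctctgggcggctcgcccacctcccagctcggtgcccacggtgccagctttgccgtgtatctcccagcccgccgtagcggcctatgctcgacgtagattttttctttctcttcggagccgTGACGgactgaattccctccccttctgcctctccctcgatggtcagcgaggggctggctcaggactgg

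The DUSP1 window held the full cAMP response element TGACGTCA at position -125 (counted back from the start, first base of the match), which 1.65% of the 35116 promoter windows in the RefSeq table hold. It also held the core TGACG at -172, -125, -122 and -111, of which -125 and -122 lie within the full element, and TATAAA at -30. On either strand, 21.2% of the windows hold TGACG and 10.7% hold TATAAA. The SPRY4 window held TGACG once, at -68, and no TATAAA. RefSeq windows of 8 of the 10 genes, 13 windows in all, were searched on both strands, and no window of DUSP4 or DUSP5 was. For some windows of SPRY2 and SPRED2, the bases after the start were not found in a GENCODE v29 transcript of the gene. Among the 13, TGACGTCA was found in 1 and TATAAA in 2, including such a window of SPRED2. TTCNNNGAA, the letters bound by STAT factors, was found in 1, a SPRY1 window (6.57% of all windows). No window held the AP-1 letters TGANTCA (6.57% of all windows), the ETS letters CCGGAAGT (3.42%) or a CArG box (1.16%), and nothing about the factors follows from that.

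DUSP1 encodes a nuclear phosphatase that acts on p38 and JNK as well as ERK and is an immediate early gene, induced within minutes by growth factors, stress and glucocorticoids. It had 883 and 1294 counts in clone 2, 165 and 97 in clone 4, and 134, 149 and 86 in parental cells, or 75.3 and 76.3 CPM, 11.3 and 8.1 CPM, and 11.1, 8.84 and 6.3 CPM in the same order. Both clone 2 libraries stood far above the other 5, and the clone 4 and parental libraries overlapped. The log2 fold change was 3.12 (SE 0.17, at an edgeR adjusted p of 1.5e-08) for clone 2 against parental cells and 2.95 (SE 0.2, adjusted p = 4.89e-07) for clone 2 against clone 4. It was 0.17 (SE 0.2, adjusted p = 0.519) for clone 4 against parental cells, and turned to -0.11 without clone 4 replicate 1 and -0.02 without parental replicate 3.

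DUSP4, another nuclear phosphatase that ERK induces, was at 124 and 128 CPM in clone 2, 99.8 and 92.7 CPM in clone 4 and 80.9, 73.6 and 72.1 CPM in parental cells. The 3 groups did not overlap, with clone 4 between the others. DUSP4 rose in log2 terms by 0.74 (SE 0.097, at an edgeR adjusted p of 4.39e-05) in clone 2 and by 0.35 (SE 0.098, adjusted p = 0.0103) in clone 4, each against the same parental libraries. It was higher in clone 2 than in clone 4 by 0.39 (SE 0.11, adjusted p = 0.0112). In clone 4 it was not called without clone 4 replicate 1 (adjusted p = 0.0584), nor between the clones without either clone 2 library or clone 4 replicate 2 (adjusted p = 0.0637 to 0.112).

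DUSP5, a nuclear phosphatase specific for ERK, was at 11.9 and 12.1 CPM in clone 2, 8.17 and 9.1 CPM in clone 4 and 12, 9.91 and 7.33 CPM in parental cells. The parental libraries overlapped those of both clones, and the clones did not overlap with each other. Its log2 fold change was 0.31 (SE 0.18, adjusted p = 0.202) in clone 2 and -0.17 (SE 0.19, adjusted p = 0.488) in clone 4 against parental cells. Between the clones it was 0.48 (SE 0.21, at an edgeR adjusted p of 0.0853), and 3 alternatives called it: leaving out parental replicate 3 (adjusted p = 0.0253), fitting only the groups compared (0.0371) and a replicate block (0.019).

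DUSP6 encodes the cytoplasmic phosphatase that is selective for ERK, and its transcript is a classic feedback product of ERK signalling. It was at 26.9 and 27.1 CPM in clone 2, 18.3 and 13.8 CPM in clone 4 and 16, 16.2 and 11.9 CPM in parental cells. The clone 2 libraries were above the rest, while clone 4 and parental libraries overlapped. DUSP6 rose in clone 2 by a log2 value of 0.87 against parental cells (SE 0.15, at an edgeR adjusted p of 0.000512) and was 0.74 higher than in clone 4 (SE 0.17, adjusted p = 0.00435). In clone 4 its log2 fold change was 0.13 (SE 0.16, adjusted p = 0.539), and -0.10 without clone 4 replicate 1 and -0.01 without parental replicate 3.

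DUSP10 encodes a phosphatase that prefers p38 and JNK to ERK. Its counts were low, at 68 and 121 in clone 2, 63 and 33 in clone 4 and 42, 62 and 46 in parental cells, which is 5.8 and 7.14 CPM, 4.33 and 2.75 CPM, and 3.37 to 3.68 CPM. The clone 2 libraries were highest, and the clone 4 libraries lay on both sides of the parental ones. It rose in clone 2 against parental cells by a log2 value of 0.89 (SE 0.21, at an edgeR adjusted p of 0.00435), and was not called without clone 2 replicate 2 (0.71, adjusted p = 0.0996). It was 0.86 higher in clone 2 than in clone 4 (SE 0.24, adjusted p = 0.0125), and was not called without clone 2 replicate 2 or clone 4 replicate 2 (adjusted p = 0.148 and 0.113). Against parental cells, clone 4 had a log2 fold change of 0.03 (SE 0.24, adjusted p = 0.932), and of -0.35 without clone 4 replicate 1 and -0.01 without parental replicate 3.

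SPRY4, a Sprouty protein that restrains receptor-driven RAS and RAF activation, was close to 0 in parental cells. It had 104 and 124 counts in clone 2, 62 and 62 in clone 4 and 6, 12 and 8 in parental cells, or 8.87 and 7.32 CPM, 4.26 and 5.18 CPM, and 0.495, 0.712 and 0.586 CPM. The 3 groups did not overlap, and all 4 resistant libraries were several fold above the highest parental library. The log2 fold change was 3.71 (SE 0.25, at an edgeR adjusted p of 1.18e-07) in clone 2 and 2.93 (SE 0.28, adjusted p = 2.29e-06) in clone 4, against the same parental libraries, and between 2.79 and 3.86 over both clones under every alternative run. Between the clones SPRY4 was 0.78 higher in clone 2 (SE 0.21, adjusted p = 0.0117), and was not called without clone 2 replicate 1, without clone 4 replicate 1 and with DESeq2 (adjusted p = 0.0692 to 0.128).

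SPRY1, a Sprouty gene induced by fibroblast growth factors and other receptor signals, had its groups in the order clone 2, clone 4, parental. It was at 13 and 14.1 CPM in clone 2, 9.27 and 8.18 CPM in clone 4 and 6.44, 5.81 and 6.82 CPM in parental cells, with no overlap between the groups. It rose in clone 2 by a log2 value of 1.10 (SE 0.15, at an edgeR adjusted p of 7.97e-05). In clone 4 it rose by 0.46 (SE 0.16, adjusted p = 0.0315), a call lost in 8 of 13 alternatives, among them the fits without clone 4 replicate 1, parental replicate 1, parental replicate 2 or either clone 2 library (adjusted p = 0.0647 to 0.175). It was 0.63 higher in clone 2 than in clone 4 (SE 0.17, adjusted p = 0.00939), and was not called without clone 2 replicate 2 or clone 4 replicate 2 (adjusted p = 0.11 and 0.0631).

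SPRY2, the Sprouty member best known for binding the ubiquitin ligase CBL, was at 5.12 and 5.25 CPM in clone 2, 6.73 and 6.85 CPM in clone 4 and 5.28, 5.22 and 3.22 CPM in parental cells. The clone 4 libraries were highest, and parental replicate 3 was well below the other parental libraries. The log2 fold change in clone 4 was 0.57 (SE 0.21, at an edgeR adjusted p of 0.0459), a call lost in 9 of 13 alternatives, including those without parental replicate 3 (0.36, adjusted p = 0.104) or without any clone 2 or clone 4 library (adjusted p = 0.075 to 0.138). In clone 2 it was 0.18 (SE 0.22, adjusted p = 0.541) against parental cells and -0.39 (SE 0.23, adjusted p = 0.215) against clone 4.

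The SPRED genes encode membrane-bound inhibitors that bring neurofibromin to RAS, and SPRED1 is the gene mutated in Legius syndrome. SPRED1 was at 8.53 and 10.7 CPM in clone 2, 7.21 and 5.76 CPM in clone 4 and 10.2, 7.18 and 10.6 CPM in parental cells. Clone 4 and parental libraries overlapped narrowly, at 7.21 and 7.18 CPM. Its log2 fold change in clone 4 was -0.51 (SE 0.21, at an edgeR adjusted p of 0.0614), and it was called lower without parental replicate 2 (-0.68, adjusted p = 0.016) and with no filter beyond 1 count (-0.55, adjusted p = 0.0223). It was 0.06 (SE 0.2, adjusted p = 0.815) in clone 2 against parental cells and 0.57 (SE 0.22, adjusted p = 0.0599) in clone 2 against clone 4. The last value was called in 5 of 13 alternatives, without parental replicate 2 or parental replicate 3, with only the groups compared, with no filter beyond 1 count and under a replicate block (adjusted p = 0.0177 to 0.0496).

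SPRED2 was at 38.4 and 37.1 CPM in clone 2, 44.2 and 38 CPM in clone 4 and 39.2, 32.7 and 40.9 CPM in parental cells, and the groups overlapped throughout. Its log2 fold changes of 0.01 in clone 2 and 0.13 in clone 4 against parental cells had the same SE of 0.12, and the value between the clones was -0.13 (SE 0.13). The edgeR adjusted p-values were 0.399 to 0.967. These were the narrowest errors of the 10 genes after those of DUSP4.

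Overlapping genes could add reads because the strand setting of the counting is not given in the sources used here. In GENCODE v29, DUSP1 and SPRY4 each overlap an antisense gene of the count table, with 4 counts for the DUSP1 partner and 6 for SPRY4-AS1 over all 7 libraries together, and SPRED2 overlaps a gene with 5 counts.

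**Figure D2:**
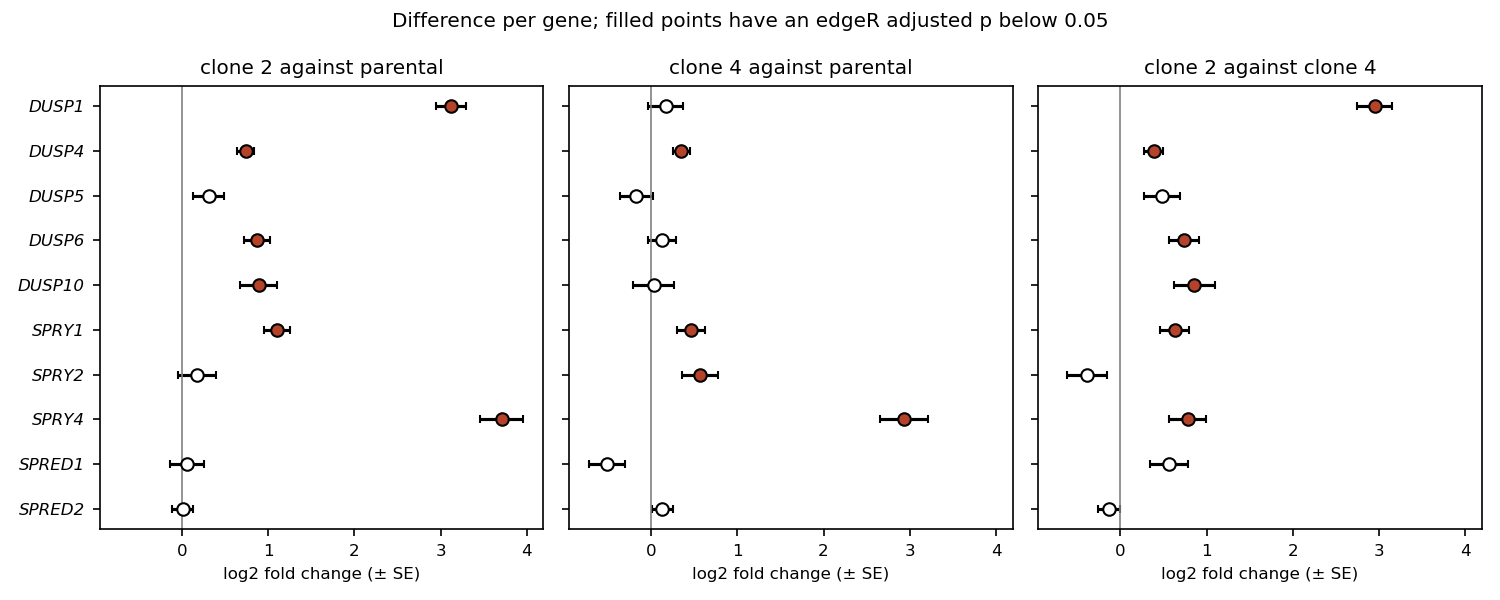
Log2 fold change (horizontal axis, bars of 1 SE) of the 10 genes in clone 2 against parental, clone 4 against parental and clone 2 against clone 4, with filled points for an edgeR adjusted p below 0.05. SPRY4 is far right in both comparisons with parental cells, at 3.71 and 2.93, whereas DUSP1 is at 3.12 in clone 2 and 0.17 in clone 4.

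Levels were compared between genes after division by exon length (GENCODE v29, all exons of a gene merged), as CPM per kb. In clone 2, DUSP1 led at 37.6 ± 0.35 CPM per kb (SD, n = 2), followed by DUSP4 at 17.4 ± 0.4 and SPRED2 at 7.33 ± 0.18. In clone 4 the order was DUSP4 at 13.3 ± 0.7, SPRED2 at 7.98 ± 0.86 and DUSP1 at 4.81 ± 1.1 CPM per kb (SD, n = 2). In parental cells it was DUSP4 at 10.4 ± 0.64, SPRED2 at 7.3 ± 0.83 and DUSP1 at 4.33 ± 1.2 CPM per kb (SD, n = 3). DUSP1, DUSP5 and DUSP6 could not be told apart in order in parental cells, their neighbouring libraries overlapping, nor could SPRY1, SPRY2, DUSP10 and SPRED1. SPRY4 and SPRED1 overlapped at the bottom of both clones, at 1.23 and 1.17 CPM per kb in clone 2 and 0.719 and 0.785 CPM per kb in clone 4. In parental cells SPRY4 was alone at the bottom, at 0.091 ± 0.017 CPM per kb (SD, n = 3), below SPRED1 at 1.13 ± 0.23.

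**Figure D3:**
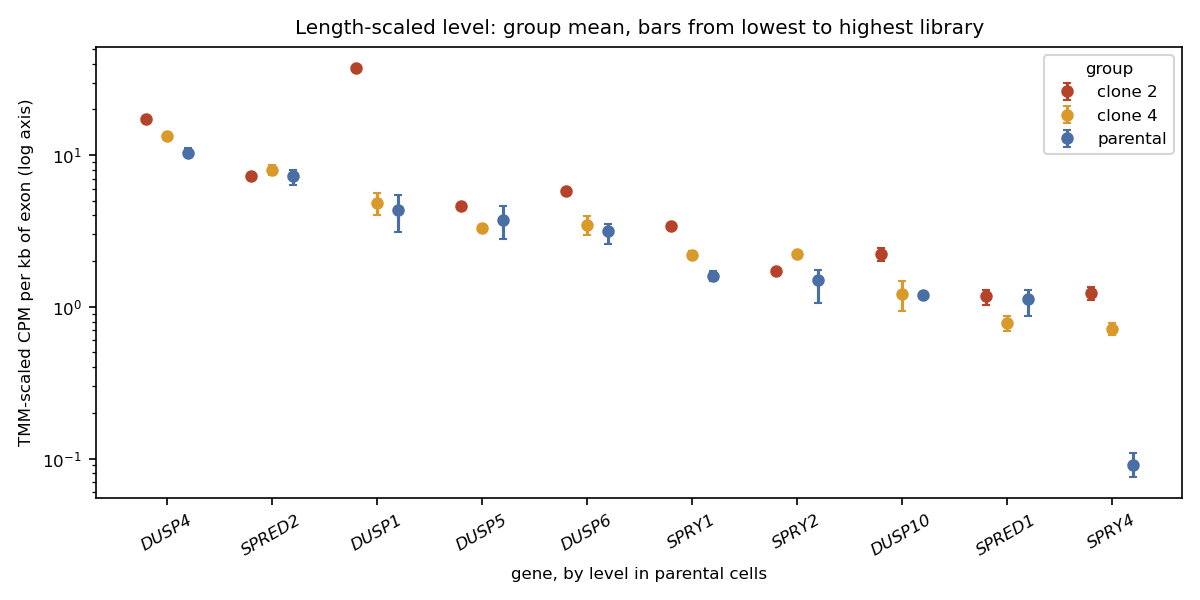
Mean TMM-scaled CPM per kb of exon (logarithmic vertical axis) of the 10 genes in clone 2, clone 4 and parental cells, ordered by the parental level, with bars from the lowest to the highest library. DUSP1 in clone 2, at 37.6 CPM per kb, is the highest value, and SPRY4 in parental cells, at 0.091 CPM per kb, the lowest.

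Of 7 other MAP kinase phosphatase, Sprouty and SPRED genes, 6 were tested. In clone 2, 5 of the 6 were higher than in parental cells, beside 21.7% of all genes tested, including SPRY3 at 1.04 (SE 0.36), DUSP16, a phosphatase for JNK and p38, at 0.78 (SE 0.18), and the cytoplasmic ERK phosphatase DUSP7 at 0.75 (SE 0.16), all log2 fold changes. In clone 4, 3 of the 6 were called, near the 44.4% of all genes called. There DUSP7 rose by 0.84 (SE 0.16) and DUSP2, a nuclear phosphatase, by 0.57 (SE 0.22), and SPRY3 fell by 1.57 (SE 0.53). SPRY3 had 26 and 41 counts in clone 2, 6 and 4 in clone 4 and 7, 29 and 13 in parental cells. The clone 2 count was 3 with DESeq2 and without clone 2 replicate 1 or parental replicate 3, and the clone 4 count of 3 was 1 with DESeq2, without either clone 4 library and without parental replicate 2. SPRED3, with 1 to 9 counts a library, was not tested. The median of the 6 was 0.70 in clone 2 and 0.12 in clone 4.

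Among 12 other brakes on RAS and ERK, 6 rose and 1 fell in clone 2 against parental cells, beside 21.7% of all genes tested higher and 20.8% lower. They included ERRFI1, which inhibits EGF receptor kinases, at 1.34 (SE 0.11), IL17RD, also called Sef, at 0.91 (SE 0.23), LZTR1, which targets RAS proteins for degradation, at 0.66 (SE 0.14), and the RAF inhibitor PEBP1, which fell by 0.61 (SE 0.092). In clone 4, 3 of the 12 were called, a smaller share than the 44.4% of all genes. ERRFI1 rose by 1.66 (SE 0.11) and LZTR1 by 0.75 (SE 0.14), while PEBP1 fell by 0.34 (SE 0.092). ERRFI1 was at 67.5 ± 0.41 CPM in clone 2 (SD, n = 2), 83.8 ± 3.9 CPM in clone 4 (SD, n = 2) and 26.7 ± 2.7 CPM in parental cells (SD, n = 3). The list's median log2 fold change was 0.28 in clone 2 and -0.03 in clone 4.

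Of the 18 genes of the RAS-RAF-MEK-ERK cascade itself, 9 fell in clone 4 against parental cells, beside 22.3% of all genes tested, led by MAPK3, which encodes ERK1, at -0.82 (SE 0.1), PTPN11, the phosphatase SHP2, at -0.69 (SE 0.13), HRAS at -0.63 (SE 0.14) and MAP2K1, which encodes MEK1, at -0.63 (SE 0.1). Only 5 were called without clone 4 replicate 2. In clone 2, 7 were called (38.9%), near the 42.5% of all genes called. Of these, 4 rose and 3 fell, among them the scaffold KSR1 at 1.01 (SE 0.22), SHOC2, which helps activate RAF, at 0.5-fold (adjusted p = 1.29e-05), HRAS at log2 -0.75 (SE 0.14) and MAP2K2, which encodes MEK2, at 0.42 (SE 0.11). That count of 7 was 3 without either clone 2 library. The median of the 18 was 0.02 in clone 2 and -0.32 in clone 4. MAPK3 was at 50.3 and 51.7 CPM in clone 2, 32.3 and 29.7 CPM in clone 4 and 53.3 to 56 CPM in parental cells.

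Of 10 genes known as transcriptional outputs of ERK, 7 rose and 1 fell in clone 2, and 6 rose and 1 fell in clone 4, each against the same parental cells, where 42.5% and 44.4% of all genes were called. ETV1, ETV5 and FOSL1 were tested only because their counts in the clones were high enough, which in part set these counts. ETV5, an ETS factor, rose in log2 terms by 2.85 (SE 0.34) in clone 2 and 1.58 (SE 0.41) in clone 4, with low counts of 40 and 43, 17 and 15, and 4, 6 and 7 in clone 2, clone 4 and parental cells. Its relative ETV1 rose by 2.24 (SE 0.32) in clone 2 and 2.29 (SE 0.32) in clone 4. EGR1 rose by 1.93 (SE 0.32) in clone 2, and the AP-1 subunit FOSL1 by 1.67 (SE 0.4) in clone 4. EPHA4, an ephrin receptor, went against the others and fell by 3.07 (SE 0.18) in clone 2 and fell by 2.04 (SE 0.16) in clone 4.

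Of 12 immediate early genes other than DUSP1, 11 were tested, and 10 were higher in clone 2 than in parental cells, beside 21.7% of all genes tested, led by FOSB at 4.82 (SE 0.2), FOS at 3.88 (SE 0.23), JUN at 2.23 (SE 0.1) and JUNB at 2.16 (SE 0.13). In all, 9 were higher in clone 2 than in clone 4, beside 19.6% of all genes tested. The number called was the same in every fit without a parental library. FOS was at 163 and 154 CPM in clone 2, 5.98 and 3.01 CPM in clone 4 and 15.3, 9.19 and 8.14 CPM in parental cells. In clone 4, FOS fell by 1.23 (SE 0.31) against parental cells, while JUNB rose by 0.75 (SE 0.13), JUN by 0.70 (SE 0.1) and ZFP36, which destabilises cytokine mRNAs, by 0.48 (SE 0.12). The median log2 fold change of the 11 was 1.44 in clone 2 and 0.25 in clone 4, each against parental cells.

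EGF family ligands activate the receptors upstream of RAS. Of 9 listed, 6 were tested. AREG, EPGN and BTC were among them only because their counts in clone 2 were high enough. The number of ligands called in clone 2 (6, against parental cells and against clone 4) was therefore in part set by the filter. Of all genes tested, 21.7% were higher in clone 2 than in parental cells and 19.6% higher than in clone 4. EREG, NRG1 and NRG2 were not tested. AREG, which encodes amphiregulin, had 88 and 121 counts in clone 2, 9 and 5 in clone 4 and 9, 4 and 7 in parental cells. EPGN had only 10 and 23 counts in clone 2 and at most 3 elsewhere, and BTC 10 and 28 in clone 2 and at most 7 elsewhere. The 3 ligands that met the minimum in other groups too were called higher in clone 2 than in parental cells, HBEGF at 1.56 (SE 0.27), EGF at 0.80 (SE 0.18) and TGFA at 0.69 (SE 0.13). EGF and TGFA are named here after their values were seen. Without clone 2 replicate 2 the count between the clones was 2. In clone 4 against parental cells edgeR and DESeq2 called 0 of the 6, beside 44.4% of all genes called by edgeR. Of the 6, 1 had an unadjusted p below 0.05. AREG, EPGN and BTC had low counts in both of these groups, which left little room for a call.

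**Figure D4:**
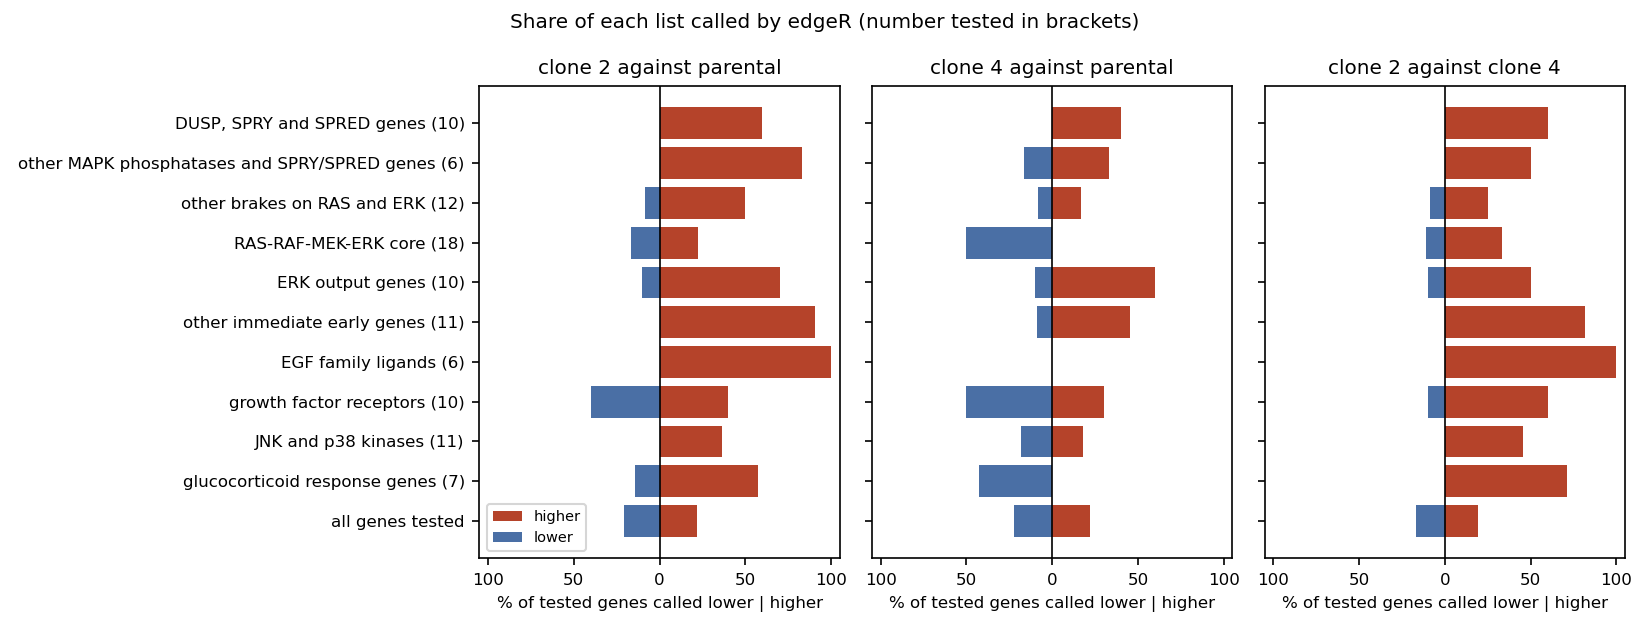
Share of the tested genes of each list that edgeR called higher (right of 0) or lower (left of 0), in percent, for clone 2 against parental, clone 4 against parental and clone 2 against clone 4, with the number tested in brackets and all 17502 genes tested in the bottom row. In clone 4, 9 of the 18 cascade genes are lower, and the bar of the EGF family ligands in clone 2 includes 3 genes that were tested only because clone 2 was high. The bar of the DUSP, SPRY and SPRED genes includes SPRY4, which was tested only because the clones were high.

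For the 3 genes with the widest range of group means, the most similar profiles were sought among 11503 genes, as the distance between log2 CPM profiles over the 7 libraries after centring, where 0 is an identical profile. SPRY4 was closest to S100A9, a calcium-binding alarmin, at a distance of 0.765, then to LGALS3BP at 0.846 and PTP4A3, a phosphatase, at 0.888. S100A9 had log2 fold changes of 3.04 in clone 2 and 2.23 in clone 4 against parental cells. DUSP1 was closest to HPSE2 at 0.781, COL5A2, a collagen, at 0.975 and VTCN1, an immune checkpoint ligand, at 1.01. HPSE2 had log2 fold changes of 3.88 in clone 2 and 0.34 in clone 4. SPRY1 was closest to MACF1 at 0.148, ANGEL1 at 0.171 and ZFP36L1 at 0.195. The points of each profile share only 3 groups, so a small distance describes these libraries.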

How the data were processed

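RNA of 7 T47D libraries had been sequenced, 2 from resistant clone 2, 2 from resistant clone 4 and 3 from parental cells. The authors deposited raw whole-number read counts per Ensembl gene with gene symbols, which were used unchanged. FastQC, CASAVA, STAR and the hg19 build are listed in the submitters' processing notes. How reads were counted, against which annotation and with which strand setting, is not given in the sources used here. Of the 63677 rows, 6724 had no symbol.

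Genes passing filterByExpr (edgeR 4.0.16, R 4.3.3, minimum count 10) were kept, 17502 in all, and scaled by TMM. A robust quasi-likelihood model of 3 group means was fitted to all 7 libraries, giving a common biological coefficient of variation of 0.0997. The threshold was 0.05 on p adjusted by Benjamini-Hochberg across the whole table. Standard errors come from the quasi-F statistic. The fit was tested on simulated data. Alternatives were DESeq2 1.42.0, RLE scaling, a filter of 1 CPM in every library of a group with 50 counts, one of only 1 count, fits of the compared groups only, a replicate block and leaving out each library.

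The members and lists were chosen with earlier results of these data known. All 10 members are named, with up to 4 called genes of each list per comparison, by size of change, plus the 3 nearest profiles (log2 CPM with prior count 2, mean of at least 2) of 3 members. Promoter sequences are RefSeq's (GRCh38.p14) and were read by symbol. The marker genes, and FKBP5, FGFR1 and IGF1R in the comparison where the rule does not name them, were added after their values were seen.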

Additional observations from a re-analysis of the deposited data

Results flagged for a closer look

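Both clones were compared with the same parental cells, and 6 of the 10 genes differed between the clones themselves by the direct test of clone 2 against clone 4. Of all genes tested, 36.5% were called in that comparison, 19.6% higher and 17.0% lower. DUSP1 was higher in clone 2 by a log2 fold change of 2.95 (edgeR adjusted p = 4.89e-07). Its level was 75.8 ± 0.7 CPM in clone 2 and 9.72 ± 2.3 CPM in clone 4 (SD, n = 2 each). DUSP10 was higher in clone 2 by 0.86 (adjusted p = 0.0125), SPRY4 by 0.78 (adjusted p = 0.0117), DUSP6 by 0.74 (adjusted p = 0.00435), SPRY1 by 0.63 (adjusted p = 0.00939) and DUSP4 by 0.39 (adjusted p = 0.0112). Of these, DUSP1 and DUSP6 kept their calls in all 13 alternatives. In all 6, both clone 2 libraries lay above both clone 4 libraries, as they did for DUSP5 and SPRED1, which were not called. SPRY2, also not called, was separated the other way. The 6 were picked by the same comparison, and the share of all genes so separated was not computed, so the separation adds nothing to the calls.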

How the results depend on the processing

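Of 390 member fold changes recomputed under alternatives, 331 kept direction and call, 29 lost a call, 10 gained one and 20 turned sign. No value that turned sign was called with either sign. In clone 4 against parental cells, 2 members were called with DESeq2 and with only the groups compared, against 4. Of all genes, DESeq2 called 6699 of 17502 in that comparison and the fit of only these groups 6727 of 16781, against 7771 of 17502. The count was 5 to 6 in clone 2 against parental cells and 3 to 8 between the clones without a library. Sign turns in clone 4 were -0.02 for DUSP1 and -0.01 for DUSP6 under the replicate block, and -0.01 for DUSP10 with no filter beyond 1 count. Without a library, these spanned -0.11 to 0.38, -0.10 to 0.32 and -0.35 to 0.30. In clone 2 against parental cells, SPRY2 was at -0.02 under the replicate block and -0.02 to 0.30 without a library. SPRED1 spanned -0.13 to 0.20. SPRED2 was at -0.02 with RLE scaling, DESeq2 and no filter beyond 1 count, and -0.09 to 0.07 without a library. The cause was not tested. Where a clone was left with 1 library, it was assumed to vary like the other groups, and fewer genes of the whole table were called in its comparisons. RLE scaling moved the median of all genes by at most 0.026 in size. Replicates 1 and 2 of each group are numbered by the descriptions in the labels, while the titles of the clone 2 libraries carry other numbers, and nothing says that a number pairs libraries. With the replicate block, 6 members were called in clone 2 and 3 in clone 4 against parental cells, and 8 between the clones. Of all 17502 genes tested, the block called 7831 between the clones, against 6396 without it. Differences between replicates 1 and 2 correlated across genes at -0.0776 between clone 2 and clone 4, -0.00328 between clone 2 and parental cells and 0.189 between clone 4 and parental cells. Read by library total instead of TMM scaling, 8 of 30 group levels moved by more than 1 SD, all but 1 of them in clone 2, as for DUSP1 at 81.4 CPM. The list counts were recomputed in the same alternatives, a choice made after seeing the data, and 43 of 468 moved by more than 1.5 times. Low counts limit SPRY4, SPRY2 and DUSP10 most.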

Other observations

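Glucocorticoid response genes, which hydrocortisone in the medium can induce through the receptor NR3C1, were listed together with NR3C1 itself, and all 7 were tested. NR3C1 was not called in any comparison. In clone 2 against parental cells 4 were higher and 1 lower, and in clone 4 3 were lower, beside 21.7% of all genes higher in clone 2 and 22.3% lower in clone 4. SGK1, a kinase, rose in clone 2 by a log2 value of 1.41 (SE 0.24), TSC22D3, the leucine zipper GILZ, by 1.13 (SE 0.17) the clock gene PER1 by 0.65 (SE 0.13) and the transcription factor KLF9 by 0.59 (SE 0.16). In clone 4, PER1 fell by 0.52 (SE 0.14) and KLF9 fell by 0.49 (SE 0.17). FKBP5, a chaperone partner of the receptor, fell by 0.38 (SE 0.11) in clone 2 and 0.78 (SE 0.11) in clone 4. In all, 5 of the 7 were higher in clone 2 than in clone 4, beside 19.6% of all genes tested. Fewer were called without clone 2 replicate 1 or clone 4 replicate 2. Without either clone 2 library, 3 were called in clone 2 against parental cells, and without clone 4 replicate 1, 1 was called in clone 4. The median log2 fold change was 0.59 in clone 2 and -0.34 in clone 4, the latter being the value of NR3C1.

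The JNK and p38 kinases, which DUSP1 and DUSP10 dephosphorylate, and their activators were tested for all 11 listed. In clone 2 against parental cells 4 were called (36.4%), fewer than the 42.5% of all genes, and all were higher, MAP2K7 at 0.62 (SE 0.11), MAPK12 at 0.60 (SE 0.14), MAP2K3 at 0.49 (SE 0.14) and MAPK14, which encodes p38 alpha, at 0.46 (SE 0.12), and the count was 2 without clone 2 replicate 1. In clone 4, 4 were called (36.4%), beside 44.4% of all genes, 2 higher and 2 lower, with MAPK11 at -0.74 (SE 0.15) and MAPK12 at 0.53 (SE 0.14), and 1 was called without clone 4 replicate 2. The median was 0.07 in clone 2 and -0.04 in clone 4.

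Of 10 growth factor receptors tested, 4 were higher and 4 lower in clone 2 against parental cells, beside 21.7% of all genes higher and 20.8% lower. In clone 4, 3 were higher and 5 lower, beside 22.1% and 22.3% of all genes. FGFR1 was higher in both clones, by 0.94 (SE 0.14) in clone 2 and 0.42 (SE 0.14) in clone 4, as was INSR, the insulin receptor, by 0.59 (SE 0.17) and 0.73 (SE 0.16). FGFR3, at -0.59 (SE 0.14) in clone 2 and -1.68 (SE 0.15) in clone 4, and IGF1R, at -0.57 (SE 0.097) and -1.06 (SE 0.1), were lower in both. ERBB4 rose by 1.21 (SE 0.14) and ERBB3 fell by 0.69 (SE 0.1) in clone 2. The clone 2 count of 8 was 5 without clone 2 replicate 2. The median was 0.26 in clone 2 and -0.28 in clone 4.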
